A study of Mus musculus with 12 samples.

Results

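Fibrillar collagen is made in the endoplasmic reticulum (ER), where prolyl and lysyl hydroxylases modify the chains and dedicated chaperones and prolyl isomerases help the triple helix to fold. COPII-coated vesicles carry the procollagen out of the ER, KDEL receptors return escaped chaperones, proteases remove the propeptides outside the cell, and lysyl oxidases crosslink the finished fibrils. Cartilage cells secrete large amounts of type II collagen and depend on this route. The genes described here are 41 named members of it, chosen by name and not by a measured value, though with earlier results of these data known. Of these, 40 were in a table of 14712 genes, and Mia3, a cargo receptor for collagen export, was not analysed here.

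RNA was measured in 12 libraries of cartilage that had been cut by laser from frozen knee sections of 3-month-old mice. Mutants carried AcanCreER (an inducible Cre expressed from the aggrecan gene, so that recombination is limited to cells that express aggrecan) together with homozygous floxed Sox9, or homozygous floxed Sox9 and Sox8. Controls carried the same floxed alleles without Cre. There were 3 sets, namely Sox9 at day 7, Sox9 at day 14 and Sox8 Sox9 at day 14, and in the Sox9 sets the table's header also names the reporter allele R26tdT/+ in mutants and controls. What the days are counted from is stated nowhere in the labels. Each set gave 1 mutant growth plate, 1 control growth plate, 1 mutant articular cartilage and 1 control articular cartilage library, so each of the 4 groups had 3 libraries. Labels do not tie the libraries to separate animals, so p-values reflect no more than the spread among libraries, which may be technical. Those of the mutant effects are also too small where both regions came from the same animal. Comparisons between tissues were instead fitted within each genotype and day.

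Values are the authors' normalised RPKM (read counts corrected for transcript length and library size), with a lowest value of 1. Depth is unknown. Fold changes are differences of log2(value + 1), so those of low genes come out too small, and were tested with limma with adjustment over all 14712 genes at an adjusted p under 0.05. Within a group, the 3 values of a gene come in the order of the sets given above. These are bulk samples, in which fewer cells of a type and less RNA per cell cannot be told apart.

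Sox9, the targeted transcription factor, had 236, 148 and 36.0 normalised RPKM in mutant growth plates, against 314, 335 and 308 in control growth plates. In mutant articular cartilage Sox9 had 304, 309 and 282, against 408, 349 and 213 in control articular cartilage. Sox9 was thus below its matched control in both Sox9 sets of articular cartilage, and above it in the library labelled Sox8 Sox9 mutant, which goes against that label. In the same articular library, Sox8 was at 8.66, against 15.3 in its control. The chondrocyte genes Acan and Col2a1 were also below that control, at 347 against 1038 and 280 against 451. Comp, another chondrocyte gene, was above it, at 1308 against 990. Why Sox9 lay above its control there was not tested. Summed over 6 chondrocyte markers, mutant growth plates held 924 to 4810, against 20255 to 30950 in control growth plates, and none of the 6 was at the lowest value in a growth plate library. In articular cartilage the same sum was 1740 to 2031 in mutants, against 2690 to 4597 in controls, with Matn3 at the lowest value in all 6 libraries. Markers of other cells were present as well, and 7 osteoblast and osteocyte markers summed to 4782 to 6564 in mutant growth plates, against 3366 to 4027 in control growth plates. Markers of marrow and connective tissue were also higher in mutant growth plates. Their sums were 341 to 1332 against 31.9 to 53.6 in control growth plates for 6 neutrophil genes, 125 to 383 against 57.5 to 109.4 for 6 macrophage genes, and 276 to 751 against 80.0 to 183 for 6 fibroblast and tendon genes. Plasma and B cell genes (4) summed to 41.5 to 144 in mutant growth plates, against 4 to 8.001 in control growth plates, and erythroid genes (3) to 143 to 350.1, against 38.0 to 124. In articular cartilage the fibroblast and tendon sum was 932 to 1726 in mutants, against 157 to 814 in controls, without overlap, while the other marker sums overlapped between the groups there, apart from the chondrocyte sum. In control growth plates Dpt and Pi16 of the fibroblast list were at the lowest value in all 3 libraries. The part of these cells in the results below was not tested.

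In the growth plate, the genes of this route did not move as 1 block. The lysyl oxidase family members Loxl2, Loxl3 and Loxl4 and the procollagen C-proteinase enhancer Pcolce2 fell most. Loxl1 and the N-proteinase Adamts2 rose. In all, 10 of 40 members passed the test in the growth plate, 2 higher and 8 lower, which is 25% of them against a background of 10.7% of all genes (7.92% higher, 2.82% lower). The members' median log2 fold change was -0.30, against 0.20 over all genes, and their range ran from -2.65 to 1.64. In articular cartilage 0 of 40 members passed limma's test, against 0.353% of all genes. There 9 members had an unadjusted p under 0.05, a count without a share of all genes to set beside it. The members' median was -0.01, against 0.13 over all genes. Without both articular Sox8 Sox9 libraries the counts were 9 in the growth plate and 0 in articular cartilage, against 1150 and 61 of all genes.

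The growth plate calls borrowed their error from all 12 libraries. With the 6 growth plate libraries fitted alone, 0 members and 0 of all genes were called. Without the set as a block, 5 members were called (1 higher, 4 lower), against 945 of all genes. Leaving out 1 library gave 5 to 11 members, against 658 to 1927 of all genes. It gave 5 without the growth plate control of the Sox8 Sox9 set, against 776 of all genes. Without that of the Sox9 day 7 set it gave 6, against 658. Scaling each library to the median ratio moved the split to 1 higher and 13 lower. The split of all genes moved too, from 1165 higher and 415 lower to 726 higher and 741 lower.

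**Figure D1:**
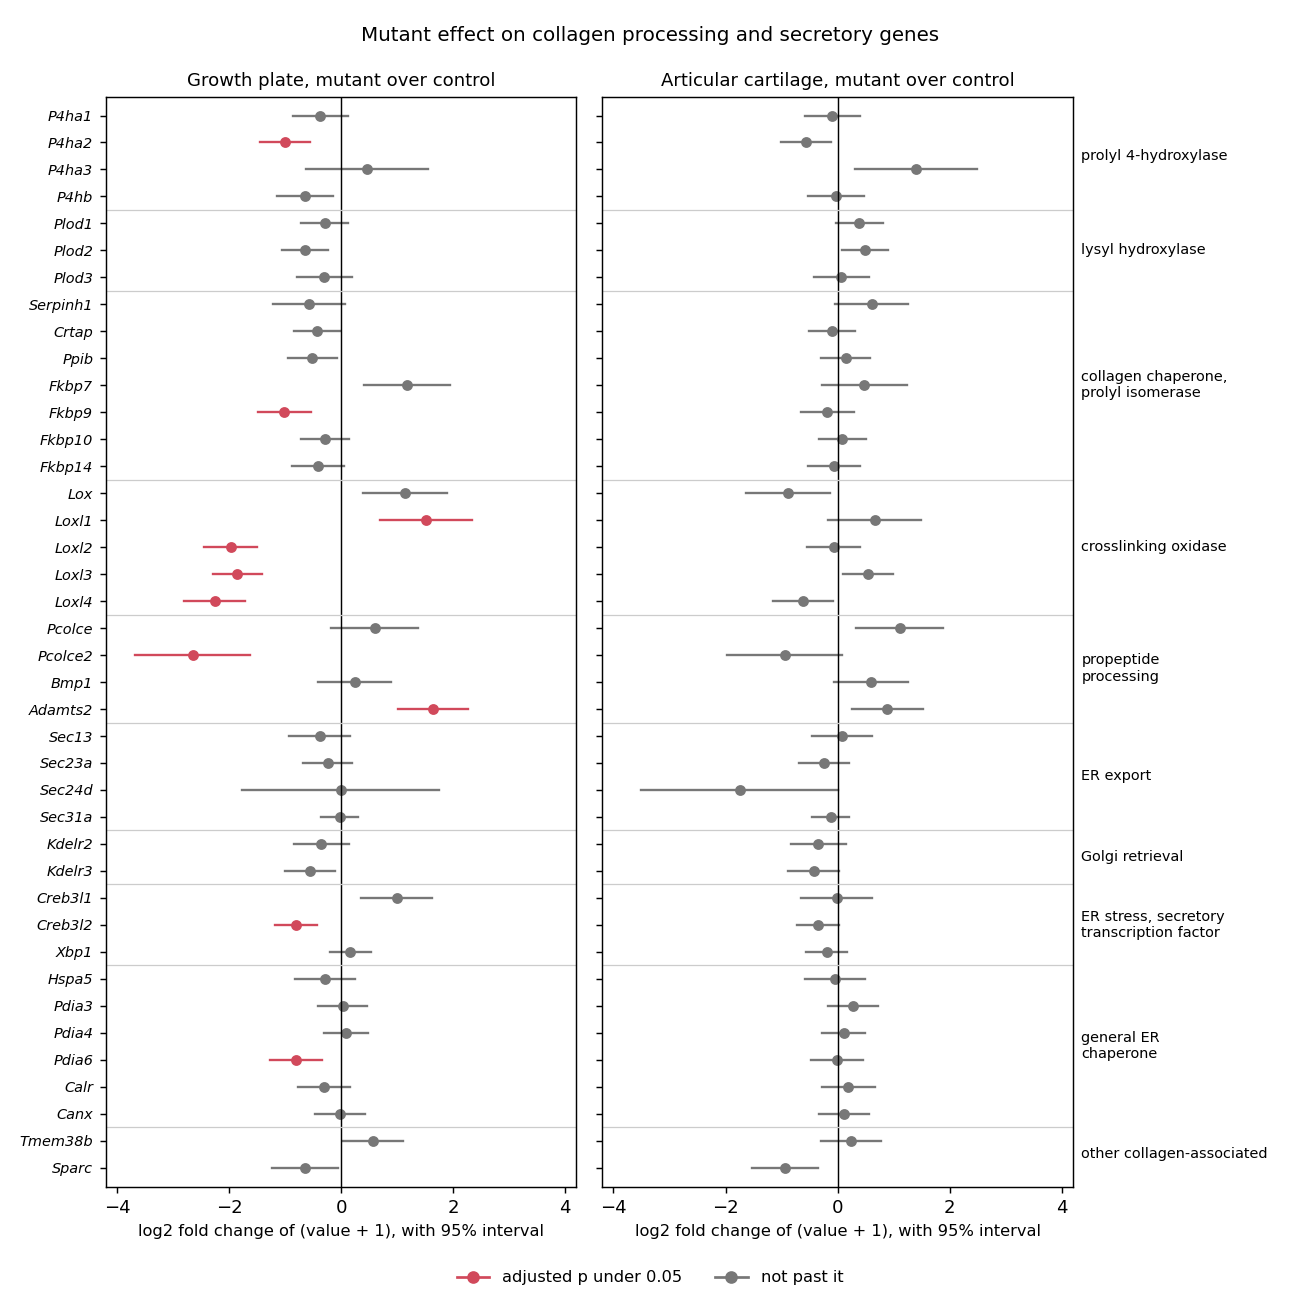
Log2 fold change of mutant over control for the 40 members, with 95% intervals, in the growth plate and in articular cartilage (3 libraries per group), grouped by role. Red points passed an adjusted p of 0.05 in limma: 10 in the growth plate, from Pcolce2 at -2.65 to Adamts2 at 1.64, and 0 in articular cartilage.

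The lysyl oxidases start collagen and elastin crosslinking by oxidising lysine side chains. Loxl2 (chromosome 14, 69609068 to 69695834, plus strand, mm10) had 23.8, 17.7 and 18.9 normalised RPKM in mutant growth plates, against 89.3, 78.1 and 76.8 in control growth plates. Every mutant value lay below every control value, and the log2 fold change was -1.97 ± 0.21 (SE; limma, adjusted p = 0.000978). Loxl3 (chromosome 6, 83034173 to 83052562, plus strand) had 17.2, 15.5 and 14.5 in mutant growth plates, against 81.7, 53.4 and 48.0 in control growth plates. These groups did not overlap either, and Loxl3 fell by 1.85 ± 0.20 (SE) on the log2 scale (limma, adjusted p = 0.000973). Loxl4 (chromosome 19, 42593982 to 42612813, minus strand) had 16.8, 10.1 and 34.6 in mutant growth plates, against 83.4, 77.9 and 115 in control growth plates. The Sox8 Sox9 library was the highest in either group, and each mutant library was below all controls; the log2 fold change was -2.26 ± 0.24 (SE; limma, adjusted p = 0.000973). Exons of Loxl2 overlap those of Gm27177 and Mir6950, and exons of Loxl3 overlap those of Htra2. The labels do not say whether counting used strand, so these values are uncertain to that extent.

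Loxl1 (chromosome 9, 58287738 to 58313186, minus strand), which acts on elastic fibres, went the other way. Its values were 22.9, 20.4 and 43.1 in mutant growth plates, against 5.12, 7.38 and 17.8 in control growth plates. The groups did not overlap, and Loxl1 rose by 1.51 ± 0.37 (SE) on the log2 scale (limma, adjusted p = 0.0295). This call was lost under both other scalings, at an adjusted p of 0.0507 with quantile normalisation and of 0.0527 with median ratios, and it held in 7 of 12 fits that left out 1 library. Lox, the founding member of the family, had 69.0, 56.7 and 222 in mutant growth plates, against 21.9, 46.4 and 75.8 in control growth plates. Each mutant was above its matched control but the groups overlapped, and the log2 fold change of 1.14 did not pass (limma, adjusted p = 0.0565).

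In articular cartilage none of the 5 oxidases passed the test. Loxl2 was at 24.5, 28.2 and 24.5 in mutants, against 21.0, 25.6 and 36.5 in controls, with overlapping groups and a log2 fold change of -0.07. Loxl3 stood at 16.8, 22.2 and 19.3 in mutants, against 13.1, 14.6 and 11.2 in controls. All 3 Loxl3 mutant values were above the controls, with a log2 fold change of 0.54 (limma, adjusted p = 0.312). Lox was at 96.4, 71.4 and 128 in articular mutants, against 174, 149 and 219 in articular controls. All 3 Lox mutant values lay below the controls, and the log2 fold change was -0.89 (limma, adjusted p = 0.327). Loxl4 stood at 8.44, 4.87 and 11.97 in articular mutants, against 10.35, 12.44 and 15.97 in controls. Each mutant was below its matched control, with overlapping groups and a log2 fold change of -0.62 (limma, adjusted p = 0.34). Loxl1 stood at 15.6, 22.4 and 16.1 in mutants, against 6.81, 6.41 and 27.9 in controls. Loxl1 was above its control in both Sox9 pairs and below it in the Sox8 Sox9 pair. Its log2 fold change was 0.66 (limma, adjusted p = 0.522).

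The change itself was compared between tissues, as the growth plate effect minus the articular effect. Of the 40 members, 1 passed, Loxl3, against 0.184% of all genes (0.136% lower). Its difference was -2.40 ± 0.28 (SE; limma, adjusted p = 0.0252). The effects behind it were -1.85 in the growth plate and 0.54 in articular cartilage. Loxl2 differed by -1.90 (limma, adjusted p = 0.0768), Loxl4 by -1.64 (0.0635) and Lox by 2.03 (0.157), and these did not pass. In all, 12 members, these 4 included, had an unadjusted p under 0.05 for the difference. That count too has no share of all genes beside it. The Loxl3 call was lost when any 1 of the 12 libraries was left out.

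**Figure D2:**
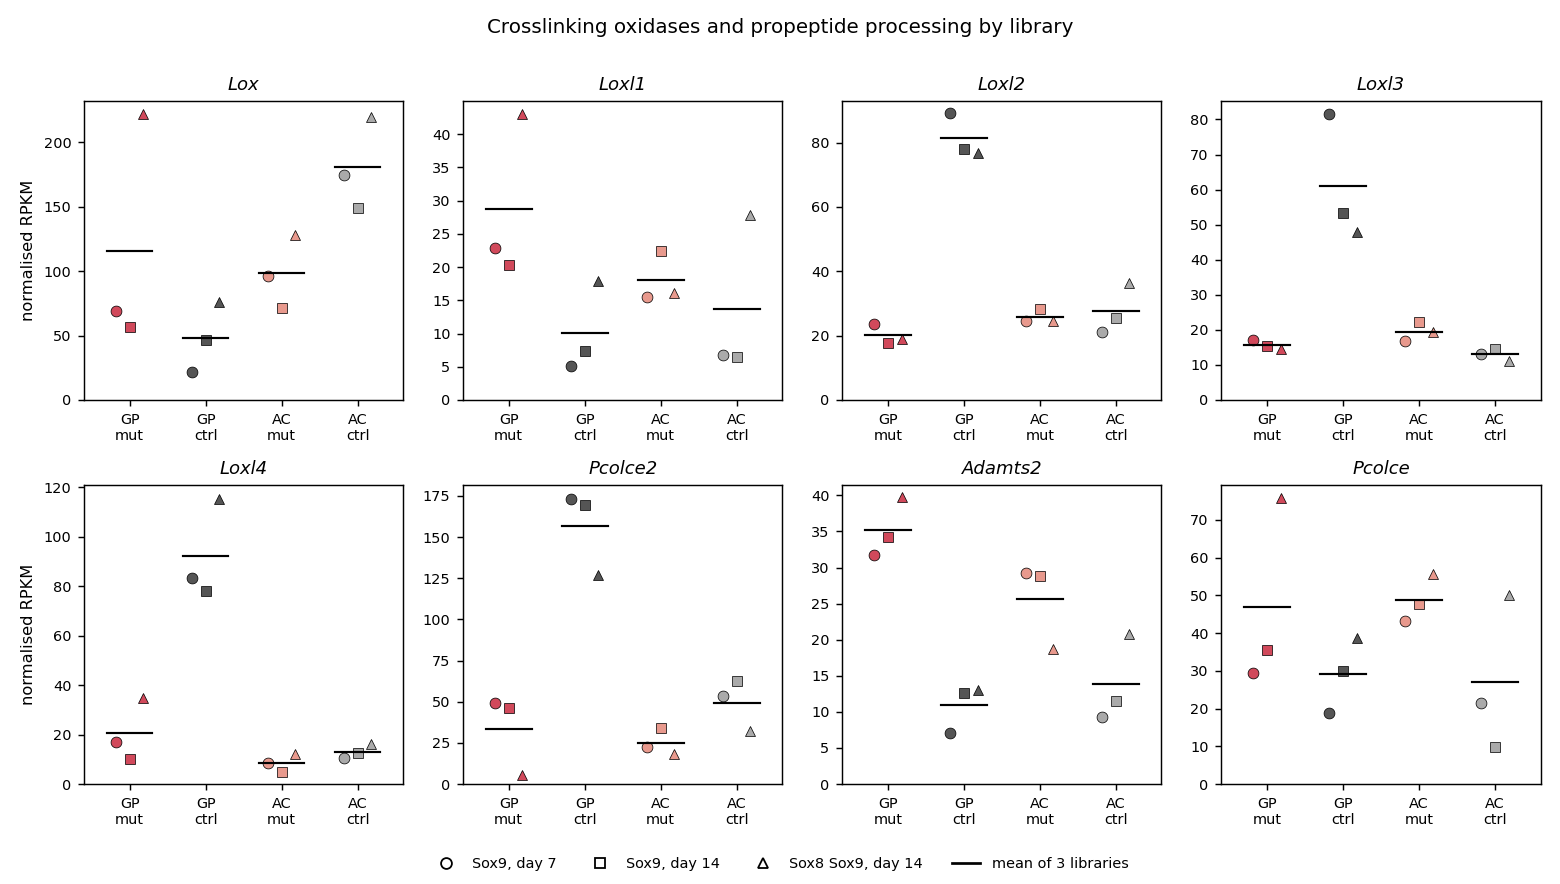
Normalised RPKM of 5 lysyl oxidase family genes, Pcolce2, Adamts2 and Pcolce in each library; circles, squares and triangles mark the sets and the bar is the mean of 3 libraries. Loxl2, Loxl3 and Loxl4 sit between 10.1 and 34.6 in mutant growth plates (GP mut), against 48.0 to 115 in control growth plates (GP ctrl), and Adamts2 shows the opposite order.

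Among the genes of propeptide removal, Pcolce2 had the largest log2 fold change of the 40 members over the 3 sets, and this rank rests on the Sox8 Sox9 set. With the Sox9 sets alone it was -1.82, against -2.54 for Loxl4. Pcolce2 (chromosome 9, 95637601 to 95698096, plus strand) binds the C-propeptide and speeds its removal. It had 49.5, 46.1 and 5.51 normalised RPKM in mutant growth plates, against 173, 169.5 and 127 in control growth plates. The lowest value was that of the Sox8 Sox9 mutant, and Pcolce2 fell by 2.65 ± 0.46 (SE) on the log2 scale (limma, adjusted p = 0.0084). Articular cartilage gave 22.3, 34.3 and 18.4 in mutants, against 53.3, 62.7 and 32.0 in controls, where each mutant was below its matched control but the log2 fold change of -0.95 did not pass. Its paralogue Pcolce had overlapping groups in the growth plate and a log2 fold change of 0.60 there. In articular cartilage Pcolce was at 43.2, 47.8 and 55.6 in mutants, against 21.4, 9.71 and 50.1 in controls (log2 fold change 1.10; limma, adjusted p = 0.241).

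Adamts2 (chromosome 11, 50602084 to 50807573, plus strand) removes the N-propeptide of fibrillar collagens. Its values were 31.7, 34.3 and 39.8 in mutant growth plates, against 7.12, 12.6 and 13.04 in control growth plates. The groups were well apart, and Adamts2 rose by 1.64 ± 0.28 (SE) on the log2 scale (limma, adjusted p = 0.00731). In articular cartilage it was at 29.3, 28.8 and 18.8 in mutants, against 9.28, 11.5 and 20.8 in controls. Only the library labelled Sox8 Sox9 mutant was below its control, and the log2 fold change of 0.89 did not pass (limma, adjusted p = 0.245). Beside these articular values, the fibroblast and tendon sum was also higher in articular mutants (932 to 1726, against 157 to 814 in articular controls). In the Sox8 Sox9 pair, where Adamts2 was lower in the mutant, the sum was 932 in the mutant and 814 in the control. The part of these cells in the Adamts2 values was not tested. Bmp1, the C-proteinase itself, had a log2 fold change of 0.24 in the growth plate and 0.59 in articular cartilage, and neither passed.

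Promoters are shown for Loxl4 and Pcolce2 because these had the lowest growth plate log2 fold changes over the 3 sets. The lines give the 250 bases before the RefSeq start on the gene's strand (GRCm38.p6, which is mm10).
Loxl4, chr19:42612807-42613056, minus strand: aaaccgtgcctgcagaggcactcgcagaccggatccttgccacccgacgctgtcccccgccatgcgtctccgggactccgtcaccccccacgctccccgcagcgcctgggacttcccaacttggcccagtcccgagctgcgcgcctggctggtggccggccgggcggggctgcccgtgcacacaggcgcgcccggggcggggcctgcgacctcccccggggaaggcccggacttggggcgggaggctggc
Pcolce2, chr9:95637378-95637627, plus strand: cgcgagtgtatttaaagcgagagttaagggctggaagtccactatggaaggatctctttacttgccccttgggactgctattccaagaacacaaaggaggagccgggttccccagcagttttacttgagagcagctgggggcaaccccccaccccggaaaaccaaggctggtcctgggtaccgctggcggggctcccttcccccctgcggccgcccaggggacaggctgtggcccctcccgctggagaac
Neither window holds the letters ACAATGG, one form of the site bound by Sox proteins, on either strand. Of all 32851 promoter windows of this length 3.02% hold it, and of 32 windows that matched 30 members 0 do. The shorter core ACAAT, which lies inside it, is in 27.7% of all windows and in 15.6% of the members' windows, those of Fkbp7, Fkbp9, Fkbp14 and Sec23a. These are matches of letters in a short window, and nothing is drawn from them about binding.

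Chain modification came next. P4ha2 (chromosome 11, 54100095 to 54131665, plus strand), a catalytic subunit of the prolyl 4-hydroxylase that stabilises the triple helix, had 15.7, 10.2 and 7.2 in mutant growth plates, against 31.1, 18.05 and 18.8 in control growth plates. The groups did not overlap, and P4ha2 fell by 0.99 ± 0.20 (SE) on the log2 scale (limma, adjusted p = 0.0136). Its articular values were 43.6, 36.8 and 31.5 in mutants, against 57.8, 68.1 and 42.6 in controls, each mutant below its own control (log2 fold change -0.56; limma, adjusted p = 0.301). The main isoform P4ha1 and the beta subunit P4hb had log2 fold changes of -0.37 and -0.64 in the growth plate and did not pass. P4ha3, the least abundant subunit, had values of 1.74, 8.14 and 2.71 in mutant growth plates, against 2.46, 1.32 and 3.40 in control growth plates. Its articular values were 6.64, 10.2 and 8.02 in mutants, against 1.58, 1.22 and 6.32 in controls, and no change passed.

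The lysyl hydroxylases prepare the lysines that later carry crosslinks. Plod2, which modifies the telopeptides, was at 171, 162 and 162 in mutant growth plates, against 304, 239.9 and 237 in control growth plates. The groups did not overlap, yet the log2 fold change of -0.64 just missed the threshold (limma, adjusted p = 0.0547). In articular cartilage Plod2 was at 191, 217 and 149.7 in mutants, against 154, 145 and 100.1 in controls, and its log2 fold change of 0.49 had the opposite sign without passing. Plod1 and Plod3 had growth plate log2 fold changes of -0.29 and -0.30.

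Among the collagen chaperones and prolyl isomerases, 1 of 7 was called in the growth plate, where 10.7% of all genes were. So small a count does not set this role apart from that share. Fkbp9 (chromosome 6, 56832059 to 56879358, plus strand), an ER prolyl isomerase, had 134, 106 and 102 in mutant growth plates, against 324, 220.2 and 171 in control growth plates. Each mutant was below every control, and Fkbp9 fell by 1.02 ± 0.21 (SE) on the log2 scale (limma, adjusted p = 0.0164). The articular log2 fold change of Fkbp9 was -0.18 and did not pass. Fkbp7 of the same family pointed the other way, at 18.5, 24.7 and 65.7 in mutant growth plates, against 13.01, 14.9 and 12.1 in control growth plates. Its groups did not overlap, and the log2 fold change of 1.17 missed the threshold (limma, adjusted p = 0.0556). Serpinh1, the collagen-specific chaperone HSP47, differed between sets. It was at 314, 281 and 614 in mutant growth plates, against 734, 398 and 609 in control growth plates. The Sox9 pairs had log2 ratios of -1.22 and -0.50 and the Sox8 Sox9 pair 0.01 (limma over all 3, -0.57, adjusted p = 0.24). Ppib, Crtap, Fkbp10 and Fkbp14, which act in prolyl 3-hydroxylation or helix folding, had log2 fold changes of -0.51, -0.42, -0.29 and -0.42.

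**Figure D3:**
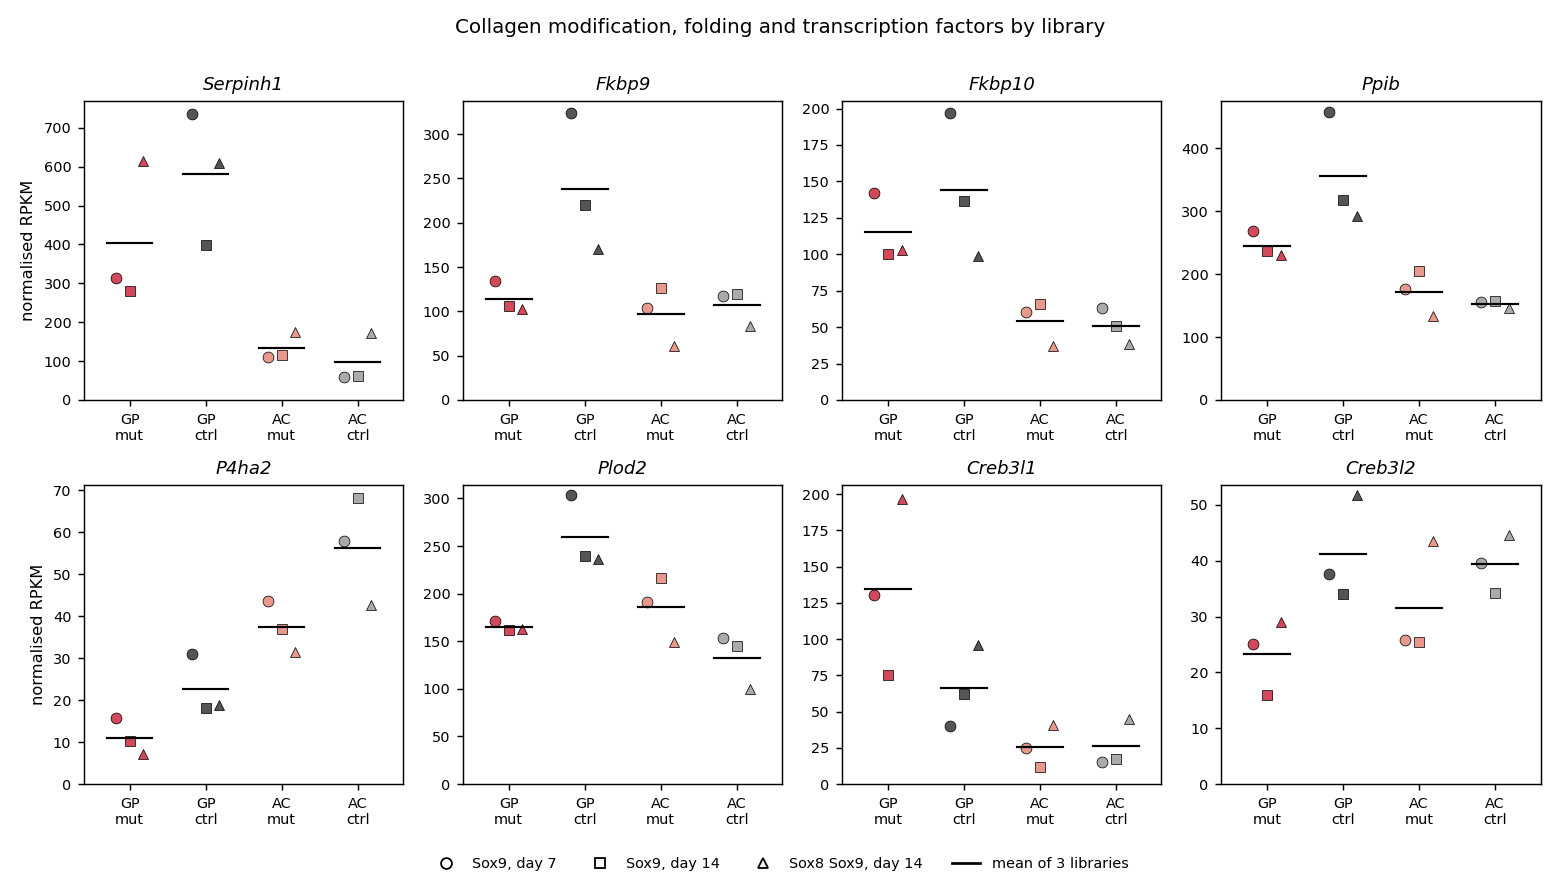
Normalised RPKM of genes for collagen modification and folding and of 2 transcription factors in each library, with the mean of 3 libraries as a bar. Fkbp9, P4ha2, Plod2 and Creb3l2 lie lower in mutant growth plates (GP mut) than in control growth plates (GP ctrl) with no overlap, while Serpinh1 overlaps.

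A pair of related membrane-bound transcription factors of the secretory route had opposite signs in the growth plate. Creb3l2 (BBF2H7; chromosome 6, 37327255 to 37442146, minus strand), known in mouse chondrocytes as an activator of Sec23a, had 25.1, 16.0 and 29.0 in mutant growth plates, against 37.7, 34.0 and 51.7 in control growth plates. The groups did not overlap, and Creb3l2 fell by 0.81 ± 0.17 (SE) on the log2 scale (limma, adjusted p = 0.0164). Each articular mutant was also below its matched control for Creb3l2, but the log2 fold change of -0.35 did not pass (limma, adjusted p = 0.449). Creb3l1 (OASIS), known for its role in osteoblasts, was at 130.3, 75.5 and 197 in mutant growth plates, against 40.2, 62.3 and 96.1 in control growth plates. Each mutant exceeded its matched control, the groups overlapped, and the log2 fold change of 0.99 did not pass (limma, adjusted p = 0.0517). Sec23a, the COPII subunit named above, was at 13.7, 12.6 and 25.3 in mutant growth plates, against 20.5, 16.0 and 22.6 in control growth plates. It was lower in the Sox9 pairs and higher in the Sox8 Sox9 pair, with a log2 fold change of -0.24. Xbp1, an effector of the unfolded protein response, had a log2 fold change of 0.17.

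The transport machinery showed no call in either tissue. Sec13 and Sec31a, of the outer COPII coat, had growth plate log2 fold changes of -0.38 and -0.02. The KDEL receptors Kdelr2 and Kdelr3 had -0.35 and -0.55. Sec24d, a cargo-binding COPII subunit, was at 42.4, 28.6 and 53.5 in mutant growth plates, against 44.9, 35.3 and 41.6 in control growth plates. In articular cartilage it was at 34.1, 1 and 43.5 in mutants, against 47.4, 45.1 and 51.8 in controls. The value of 1 belongs to the Sox9 day 14 mutant, where all 205 listed genes between positions 106034664 and 159938664 of chromosome 3 were at the lowest value, against 17 to 36 of them in each other library. Col11a1, Col24a1, Ostc and Sec24b of the lists below lie in the same stretch. With this stretch treated as missing in that library, the articular log2 fold change of Sec24d was -0.44 ± 0.20, compared with -1.75 ± 0.78 as deposited (SE; limma, adjusted p = 0.406 and 0.41).

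Of the general ER chaperones and disulfide isomerases 1 of 6 was called in the growth plate, against 10.7% of all genes. This count too is too small to set the role apart. Pdia6 (chromosome 12, 17266545 to 17284770, plus strand) fell, at 41.1, 22.8 and 40.7 in mutant growth plates, against 69.2, 56.3 and 54.4 in control growth plates. The groups did not overlap, and the log2 fold change was -0.80 ± 0.21 (SE) (limma, adjusted p = 0.0356), a call that held in 3 of 12 fits without 1 library. The articular log2 fold change of Pdia6 was -0.01 and did not pass. Exons of Pdia6 overlap those of Atp6v1c2 on the other strand. Hspa5 (BiP), the main ER chaperone, was at 121, 78.0 and 166 in mutant growth plates, against 178, 114 and 142 in control growth plates. These overlapped (log2 fold change -0.29), and so did the lectin chaperones Calr (-0.30) and Canx (-0.02) and the isomerases Pdia3 (0.03) and Pdia4 (0.09).

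The ER stress response element, CCAAT and CCACG with 9 bases of any kind between them, is a known promoter element of ER chaperone genes. It was found on either strand in 0.113% of all 32851 windows of 250 bases and in 12.5% of the members' 32 windows, those of Calr, Canx, Hspa5 and Pdia6. The lines show 60 bases around each match on the gene's strand (GRCm38.p6, RefSeq), with the element in capitals, because 1 of these 4 genes, Pdia6, fell in the growth plate while the other 3 did not pass.
Calr, chr8:84847054-84847113, minus strand: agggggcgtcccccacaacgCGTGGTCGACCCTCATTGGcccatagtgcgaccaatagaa
Canx, chr11:50325779-50325838, minus strand: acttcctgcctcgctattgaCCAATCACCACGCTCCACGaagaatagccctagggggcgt
Hspa5, chr2:34772005-34772064, plus strand: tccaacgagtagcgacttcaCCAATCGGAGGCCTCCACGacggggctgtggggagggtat
Pdia6, chr12:17266471-17266530, plus strand: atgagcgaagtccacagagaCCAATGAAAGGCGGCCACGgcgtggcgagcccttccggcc
The shorter element TGACGTG, the core of another unfolded protein response site, was in 1.65% of all windows and 9.38% of the members' windows, those of Hspa5, Kdelr3 and Sec24d. A match describes the letters only.

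Of the 2 remaining members, Sparc, a matrix protein that binds collagen, was the most abundant. It was at 2569, 2881 and 4326 in mutant growth plates, against 3859, 5672 and 5625 in control growth plates, each mutant below its matched control (log2 fold change -0.65; limma, adjusted p = 0.146). Articular Sparc was at 951, 849 and 922 in mutants, against 1999, 1478 and 1773 in controls. Those articular groups did not overlap, and the log2 fold change was -0.94 ± 0.26 (SE; limma, adjusted p = 0.194). Tmem38b, an ER cation channel whose loss disturbs collagen handling in bone, had log2 fold changes of 0.58 in the growth plate and 0.23 in articular cartilage.

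Across the 3 growth plate pairs the members did not shift alike. Their median log2 ratio was -0.55 in the Sox9 day 7 pair, -0.38 in the Sox9 day 14 pair and 0.04 in the Sox8 Sox9 pair, against 0.30, 0.00 and 0.20 over all genes. Members below 0 numbered 30, 30 and 18 of 40. In the articular pairs the median was -0.01, 0.10 and -0.13, against 0.16, 0.06 and 0.07 over all genes. With 1 pair per set, days and genotypes were not compared by a test.

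**Figure D4:**
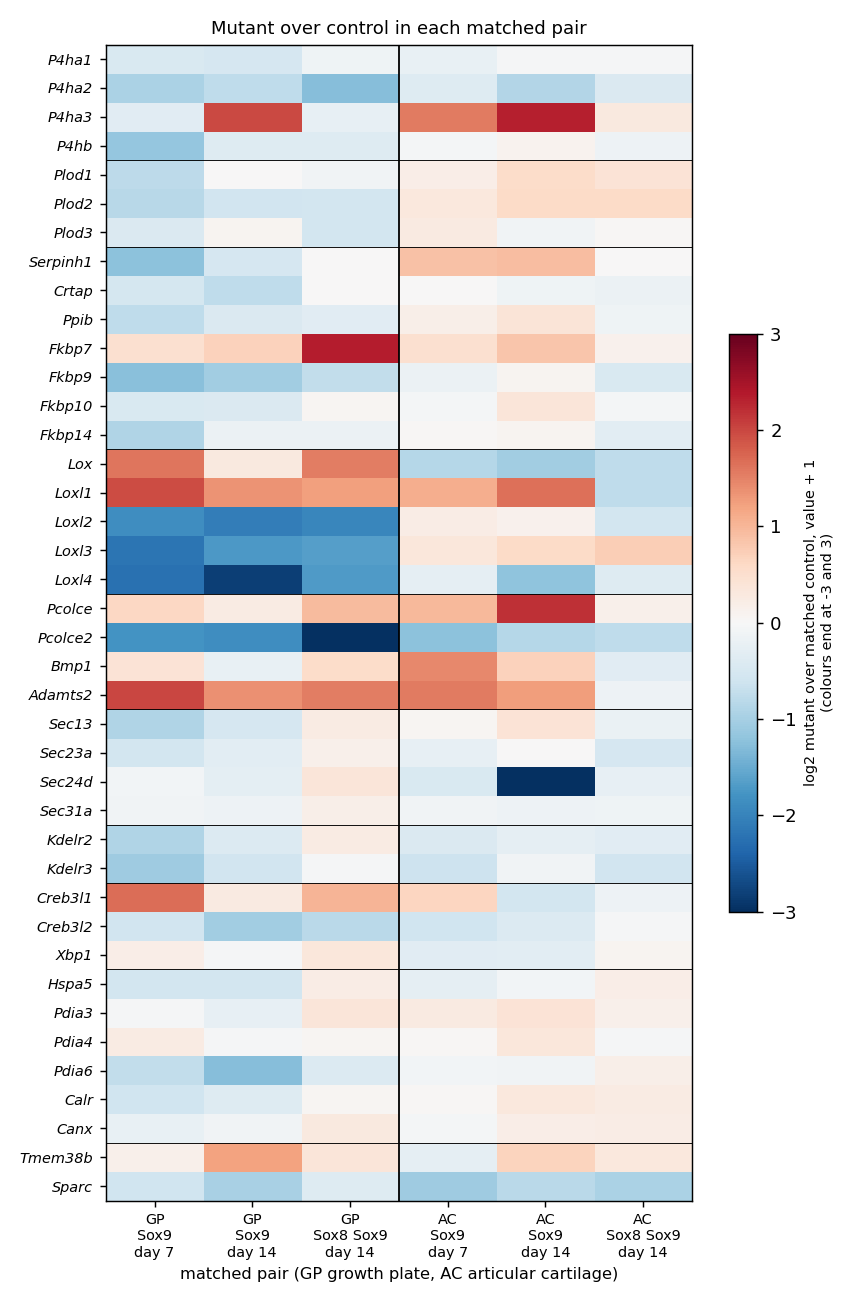
Log2 ratio of mutant over matched control on the value + 1 scale for the 40 members in the 6 pairs, growth plate (GP) left and articular cartilage (AC) right; colours end at -3 and 3. Loxl2, Loxl3, Loxl4 and Pcolce2 are blue in all 3 growth plate pairs, and the dark Sec24d cell is the library with the chromosome 3 stretch at the lowest value.

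Control growth plates and control articular cartilage also differed in these genes. Of 40 members 14 were higher and 3 lower in control growth plates than in control articular cartilage, 42.5% of members against 12.9% of all genes (4.26% higher, 8.63% lower), with a median of 0.33 against -0.10. The control growth plate libraries are the same ones used for the mutant effect. Serpinh1 was at 734, 398 and 609 in control growth plates, against 60.2, 60.5 and 173 in control articular cartilage. The log2 fold change of Serpinh1 was 2.70 ± 0.31 (SE; limma, adjusted p = 0.000818), and the groups were far apart. Loxl4 was higher in control growth plates by 2.74, Bmp1 by 2.31, Loxl3 by 2.12, Pcolce2 by 1.69, Loxl2 by 1.55 and Sparc by 1.52 on the log2 scale. The same held for Fkbp10 (1.46), Creb3l1 (1.40), Ppib (1.19), Fkbp9 (1.12), Plod2 (0.98), Kdelr3 (0.87) and Crtap (0.73). Lox, P4ha2 and Xbp1 were lower in the growth plate, with log2 fold changes of -2.04, -1.29 and -0.73. Some of these calls were lost in fits that left out 1 library. Crtap and Pcolce2 held in 4 of 12 such fits, and Fkbp9 and Xbp1 in 6. Plod2, Kdelr3 and Sparc held in 8 and Ppib in 10, while the others held in 12. Marker sums differed between these tissues too. They were 20255 to 30950 in control growth plates against 2690 to 4597 in control articular cartilage for chondrocyte genes, 3366 to 4027 against 1033 to 1556 for osteoblast and osteocyte genes, and 35.1 to 47.5 against 8.42 to 33.5 for 4 endothelial genes. Neutrophil genes summed to 31.9 to 53.6 in control growth plates, against 92.6 to 986 in control articular cartilage. The part of these cells in the tissue difference was not tested. Without 1 of the 6 control libraries the count of called members was 10 or 11 of 40. The count over all genes was then 894 to 1063, compared with 1896 in the chosen fit.

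Other genes of the route were read from lists of the same functions. Of 6 further genes of collagen prolyl and lysyl modification, 0 rose and 5 fell in mutant growth plates, with a list median of -1.17: Glt25d2 (-2.59), Glt25d1 (-1.27), Leprel1 (-1.26), Leprel4 (-1.09) and Lepre1 (-0.80). Of 10 further genes of procollagen processing and crosslinking in the table, 3 rose and 2 fell, among them the small proteoglycan Dcn (1.56), the convertases Pcsk5 (1.38) and Furin (-1.14), and the N-proteinases Adamts14 (1.03) and Adamts3 (-0.97). Of 24 other COPII and export genes 1 fell, the cargo receptor Tmed9 (-0.61). Calls numbered 0 of 21 for Golgi and COPI retrieval, 0 of 30 for other ER chaperones and 0 of 27 for the translocon. Of 14 ER stress genes 1 was called, Ddit3 (0.62), which encodes the stress factor CHOP. The background for these counts is the 7.92% of all genes called higher and the 2.82% called lower, and 1 of 14 higher or 1 of 24 lower is close to it.

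Collagen genes, the cargo of this route, were read from a pair of lists. Of 8 cartilage collagen genes 7 fell in mutant growth plates, against 2.82% of all genes. The list median was -3.90, and among those that fell were Col10a1 (-6.49), Col9a1 (-4.46) and Col2a1 (-3.50). Of 13 collagens of bone and fibrous tissue 5 rose and 0 fell, against 7.92% and 2.82% of all genes. Their median was 1.24, and the rise was led by Col3a1 (3.17), Col5a2 (1.77), Col1a2 (1.71) and Col1a1 (1.66). The other 8 did not pass and lay on both sides of 0, from Col24a1 at 1.79 to Col6a3 at -0.79, with Col12a1 at -0.71, Col6a1 at -0.67 and Col6a2 at -0.48 also below it. Col24a1 and the cartilage collagen Col11a1 lie in the chromosome 3 stretch described above. Their value of 1 in that articular library enters the error used for the growth plate test. For Sec24d, the growth plate SE was 0.78 as deposited and 0.19 with the stretch treated as missing. Col2a1 was at 1547, 3090.1 and 680.2 in mutant growth plates, against 21242, 13921 and 16033 in control growth plates. Col1a1 was at 12168, 16508 and 13734 in mutant growth plates, against 2171, 6678 and 6061 in control growth plates. Across all 9 lists, 1 gene was called in articular cartilage, Col10a1 (-3.32), against 0.353% of all genes.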

How the data were processed

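Laser-captured knee cartilage gave 12 RNA-seq libraries, made with a stranded low-input total RNA kit per the labels' protocols. The deposited values are RPKM that the authors normalised further, named NRPKM per the file headers; the method, aligner, counter and annotation were not given in the sources used here. Per the submitters' processing notes, mm10 was used. No value lies below 1, and whole reads could not be recovered, so depth is unknown and no counting interval is given. GENCODE M21 gave coordinates by gene identifier, and 15 of 40 members share exon positions with another gene.

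Log2(value + 1) was fitted with limma 3.58.1 (robust, mean trend; statmod 1.5.0, R 4.3.3), with Benjamini-Hochberg adjustment over 14712 genes. Mutant effects came from a fit of 4 tissue and Cre groups with the set as block; the comparison of control tissues and the difference of effects had a block for each genotype and day. Fits were tested on simulated data with 200 changed genes. Alternatives were another added value (5), quantile or median ratio scaling, a mean of at least 5, other blocks, the Sox9 sets or 1 tissue alone, and each library left out.

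Members and lists were chosen with earlier results of these data known. Values per library are given for members called in either mutant effect. For Fkbp9, Creb3l2 and Pdia6 they are given in the growth plate only, with the articular fold change beside them. Other members are given by role, and extra values, such as those of Serpinh1, Sparc and Sec24d, were picked after they were seen. Up to 4 called genes of each other list were to be named; where 5 were called, all are named.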

Additional observations from a re-analysis of the deposited data

Results flagged for a closer look

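Loxl3 was the only member whose mutant effect differed between growth plate and articular cartilage by the test of the difference itself, at -2.40 on the log2 scale (SE 0.28; limma, adjusted p = 0.0252). It was below its matched control in 3 of 3 growth plate pairs and above it in 3 of 3 articular pairs. Groups of 3 libraries were not examined for outlying samples.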

How the results depend on the processing

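No called member changed sign under any alternative or left-out library. The growth plate count of 10 members was 6 with the Sox9 sets alone, 5 with no replicate block and 0 with the 6 libraries of the tissue alone, where Loxl2, Loxl3, Loxl4, Pcolce2 and Adamts2 also lost their calls; these 5 held in the other 9 of 10 alternatives and in 12 of 12 left-out fits. The mean filter gave 14 (5 higher, 9 lower) and median ratio scaling 14 (1 higher, 13 lower). Over all genes the growth plate calls were 1580 in the chosen fit and 274 with the Sox9 sets alone. They were 945 with no replicate block and 0 with the tissue alone. The mean filter gave 1250 (890 higher, 360 lower), but only among the genes it kept, those with a mean of at least 5. Their number is not given here, so the share called cannot be set beside that of the chosen fit. Median ratio scaling gave 1467 (726 higher, 741 lower). The difference of effects had 1 member called in the chosen fit, 2 with a value of 5 added, median ratio scaling, a mean of at least 5 or the set block with 4 cells, and 0 with the Sox9 sets alone or, chosen after seeing the data, without both articular Sox8 Sox9 libraries. For all genes the difference gave 27 calls in the chosen fit, 20 to 40 in the fits with 2 members and 0 in those with 0. The mean filter again counted only the genes it kept. Leaving out 1 library in turn gave 5 to 11 in the growth plate, 10 to 17 for the control tissues, 0 to 0 for the difference and 0 to 0 in articular cartilage. Over all genes the same fits gave 658 to 1927, 894 to 2068, 0 to 4 and 6 to 101. Treating the chromosome 3 stretch as missing, also chosen after seeing the data, gave 11, 18, 1 and 0, against 1659, 1955, 31 and 55 of all genes. The median of all genes in the growth plate was 0.02 with median ratio scaling and -0.00 with quantile normalisation, against 0.20 as deposited; in articular cartilage it was 0.01 and -0.00, against 0.13. The causes were not tested. Unknown depth limits low genes such as P4ha3.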
